A study of Mus musculus with 58 samples.

Results

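The genes followed here are 8 members of the cholesterol synthesis pathway and its control: Hmgcs1, Mvk, Mvd, Idi1, Fdps, Sqle, Cyp51 and Insig1. They were chosen by name, as the kidney table's rows with those symbols and the liver rows with the same RefSeq identifiers, and make up 10 transcripts of 8 genes among 24123 genes in all. Counts of transcripts were summed per gene. Reads were counted in 7 of the 8 genes. Mvd was listed at 0 in all 58 libraries, so every count of members below is out of 7. RNA came from liver and kidney of male B6C3F1/J mice aged 5 to 6 weeks, a hybrid strain (another label names C57BL/6), after a single stomach dose of trichloroethylene (TCE), tetrachloroethylene (PCE) or the vehicle, 5% Alkamuls EL-620 in saline. The time from dose to sampling is not given in the sources used here. Doses of TCE were 24, 80, 240 and 800 mg/kg, those of PCE 30, 100, 300 and 1000 mg/kg, so that each step matched in molar terms at about 0.22, 0.67, 2 and 6 mmol/kg. Of the 20 groups of libraries, 18 hold 3 and 2 hold 2, namely 0.67 mmol/kg PCE in liver and the PCE vehicle group in kidney. Both chemicals are chlorinated ethenes, and PCE carries a chlorine atom where TCE carries a hydrogen atom.

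Cells make cholesterol from acetyl-CoA through mevalonate, isoprenoid diphosphates, squalene and lanosterol. The transcription factor SREBP2 raises most enzymes of this route when sterols in the endoplasmic reticulum run low, and liver is a main site of the synthesis. Insig proteins hold the SREBP escort protein SCAP in the endoplasmic reticulum when sterols are plentiful, and Insig1 is itself an SREBP target, so the pathway carries its own brake.

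Transcript levels are given as CPM, counts scaled to a common total by TMM-normalised library sizes. A liver library held 30932385 to 125880542 counts and a kidney library 23247565 to 32420329. The liver vehicle and 6 mmol/kg libraries were deeper (88048143 to 125880542) than those in between (30932385 to 65112568). The tissues carried their own markers, since the 5 hepatocyte markers summed to 67700 to 135000 CPM in liver and the 5 proximal tubule markers to 50000 to 78700 CPM in kidney. The kidney libraries varied in markers of adjoining tissues. The markers listed for brown fat (Ucp1, Cidea, Adipoq and Plin1) summed to 1.01 to 184 CPM there and exceeded 50 CPM in 8 of 29 libraries. Ucp1 held 111 of the 184 CPM at 6 mmol/kg PCE, replicate 3, and 33.8 of 111 CPM at 0.67 mmol/kg TCE, replicate 3. Which kind of fat the sum reflects was not tested. Adrenal cortex markers reached 4200 CPM in 1 library (0.67 mmol/kg TCE, replicate 3) against at most 14.6 CPM in the others. The labels name no separate animals behind the replicates, so each p-value reflects the spread among the libraries, which may be partly technical.

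The proximal promoters were searched for the motifs that SREBP2 and its partner NF-Y are known to read, the sterol regulatory element and the CCAAT box. RefSeq promoters of GRCm38.p6, 250 bases before to 50 bases after the gene start, were found for 6 of the 8 genes (Hmgcs1, Insig1, Mvk, Mvd, Idi1 and Cyp51). A sterol regulatory element was searched as TCACNCCAC and a CCAAT box as ATTGG, both on either strand, and no match of 1 motif overlapped a match of the other in these promoters. The first matched in Hmgcs1 alone of the 6 and in 1.24% of 32851 promoters of that length. The CCAAT box matched in each of the 6, with 1 to 5 matches, and in 37.41% of all promoters. A match is only a run of letters, and its absence says nothing about binding. Hmgcs1 is printed for the sterol regulatory element, Insig1 and Mvk because their transcripts changed, and Idi1 because it moved closely with other enzymes in liver. Capitals mark matches, and each sequence reads 5′ to 3′ on the gene's own strand, the plus strand in all 4. The regions are chr13:119690101-119690400 for Hmgcs1, chr5:28071162-28071461 for Insig1, chr5:114444019-114444318 for Mvk and chr13:8885356-8885655 for Idi1.
Hmgcs1: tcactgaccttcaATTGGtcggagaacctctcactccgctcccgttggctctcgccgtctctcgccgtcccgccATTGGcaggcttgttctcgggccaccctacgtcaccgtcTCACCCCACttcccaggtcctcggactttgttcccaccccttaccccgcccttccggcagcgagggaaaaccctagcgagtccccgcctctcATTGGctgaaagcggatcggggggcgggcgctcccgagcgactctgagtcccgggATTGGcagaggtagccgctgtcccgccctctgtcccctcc
Insig1: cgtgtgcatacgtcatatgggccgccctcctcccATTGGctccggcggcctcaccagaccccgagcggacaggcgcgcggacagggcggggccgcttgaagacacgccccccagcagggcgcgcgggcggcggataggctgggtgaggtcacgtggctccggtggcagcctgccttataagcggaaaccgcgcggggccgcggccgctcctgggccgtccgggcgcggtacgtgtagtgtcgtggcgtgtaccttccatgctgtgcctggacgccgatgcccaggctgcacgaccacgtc
Mvk: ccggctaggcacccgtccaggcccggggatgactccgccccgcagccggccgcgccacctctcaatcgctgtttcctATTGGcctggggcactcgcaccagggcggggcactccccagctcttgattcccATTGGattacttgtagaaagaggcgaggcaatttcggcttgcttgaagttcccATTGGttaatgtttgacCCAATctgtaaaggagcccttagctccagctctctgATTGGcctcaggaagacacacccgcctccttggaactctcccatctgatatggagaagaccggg
Idi1: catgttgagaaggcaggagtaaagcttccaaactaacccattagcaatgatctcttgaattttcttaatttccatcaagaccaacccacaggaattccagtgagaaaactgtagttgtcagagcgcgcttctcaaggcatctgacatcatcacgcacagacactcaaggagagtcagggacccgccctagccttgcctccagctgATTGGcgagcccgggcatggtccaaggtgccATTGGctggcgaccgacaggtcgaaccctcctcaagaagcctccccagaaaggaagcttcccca

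The Hmgcs1 region held 4 CCAAT boxes and the single sterol regulatory element, the Mvk region 5 CCAAT boxes, the Idi1 region 2 and the Insig1 region 1. The Mvk region also spans the whole gap to its neighbour. Mvk (chromosome 5, 114444269 to 114460591, plus strand in GENCODE) and Mmab, a gene of cobalamin metabolism on the minus strand (114431034 to 114444060), start head to head, 208 bases apart.

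How the reads were counted sets which genes can be read. The tables list each RefSeq transcript separately. HTSeq, named in the submitters' processing notes, sets aside reads that match several features, and the ambiguous line held 19.68 to 22.55% of each library. Hmgcs1, the cytosolic HMG-CoA synthase, was counted in 1 of its 2 transcripts (9815 counts over all liver libraries and 5798 in kidney), and the other was at 0. Fdps, which makes farnesyl diphosphate, was likewise counted in 1 of 2 transcripts, with 32781 counts in liver and 593 in kidney. For Mvd, which makes isopentenyl diphosphate, a non-coding transcript outside the rule held 1037 and 411 counts, and the coding one none. Sqle, Insig1, Mvk, Idi1 and Cyp51 have 1 transcript each in the tables. In the GENCODE annotation Hmgcs1 shares 557 exon bases with the antisense gene Gm48342, Fdps 1124 with Gm43738 on its own strand, Idi1 323 with Gm48574 and Cyp51 166 with Akap9, both on the opposite strand. The strand setting of the counting is not given in the sources used here, so reads in those bases cannot be assigned to 1 gene with certainty.

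The first comparison set the untreated tissues side by side. In the 6 liver vehicle libraries the level per kilobase of transcript was highest for Insig1, at 305 ± 69.2 CPM per kb (SD, n = 6), followed by Idi1, the isopentenyl diphosphate isomerase, at 133 ± 39.2. Cyp51, the lanosterol demethylase, came next at 84.5 ± 19, then Sqle, the squalene epoxidase, at 67.8 ± 18.8 and Mvk, the mevalonate kinase, at 46.5 ± 11.5. Fdps was at 19.8 ± 6.57 and Hmgcs1 at 2.44 ± 1.99, each from its single transcript with counts set over the mean length of both. Reads that match both transcripts of a gene would be set aside, so levels of Fdps and Hmgcs1 may be understated in both tissues. Their rank against genes with 1 transcript is therefore uncertain. Ranges of the libraries overlapped between Idi1 and Cyp51, between Cyp51 and Sqle and between Sqle and Mvk, while Insig1, Fdps and Hmgcs1 were each apart from their neighbours in this order. In the 5 kidney vehicle libraries the order was different, with Cyp51 at 67.4 ± 18.7 CPM per kb (n = 5) and Idi1 at 56.3 ± 9.61 in overlapping ranges at the top. Sqle (22.7 ± 4.14) and Insig1 (17.1 ± 2.75) also overlapped, followed by Mvk at 8.06 ± 0.876, Hmgcs1 at 1.48 ± 0.349 and Fdps at 0.282 ± 0.127.

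**Figure D1:**
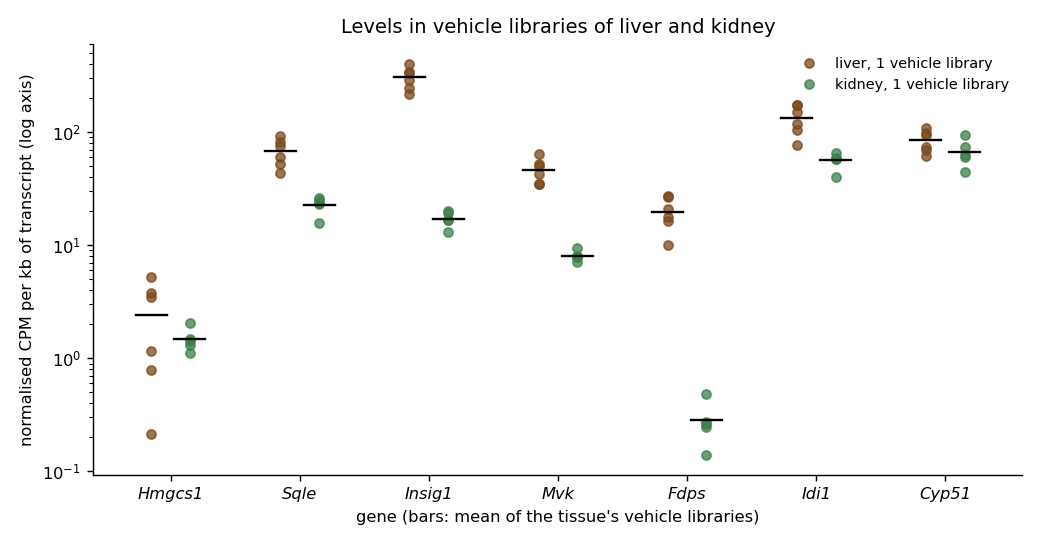
Level of each gene in vehicle libraries, in normalised CPM per kb of transcript on a log axis, with 1 point per library (6 liver, 5 kidney) and a bar at the mean. Insig1 and Fdps, the latter counted in 1 of its 2 transcripts, stand furthest apart between the tissues and Cyp51 least.

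Against liver, 6 of the 7 genes were lower in kidney and Hmgcs1 did not pass, where 72.9% of the 14949 genes tested were called in either direction. Insig1 ran from 583 to 1090 CPM in liver and from 35.1 to 54 CPM in kidney on 1 joint scale, with no overlap. Its log2 difference was −4.17 (SE 0.18, edgeR adjusted p = 1.07e-24). Fdps differed by −6.07 (SE 0.37, adjusted p = 6.98e-19), with 6 to 29 counts behind each kidney value. That value is for the 1 of its 2 transcripts that was counted. The part of transcript use, or of the exon bases shared with Gm43738, was not tested. Mvk differed by −2.52 (SE 0.15), Sqle by −1.61 (SE 0.19) and Idi1 by −1.27 (SE 0.24), with adjusted p of at most 8.63e-06. Cyp51 was the nearest to equal among those called, at −0.39 (SE 0.16, adjusted p = 0.0321), and this call was lost with DESeq2 (adjusted p = 0.0666), with DESeq2's size factors (0.0707) and without any 1 of 6 libraries (liver TCE vehicle replicate 1 or 3, liver PCE vehicle replicate 3, kidney TCE vehicle replicate 2 or 3, or kidney PCE vehicle replicate 1), with differences of −0.38 to −0.28. Hmgcs1 differed by −0.63 (95% interval −1.67 to 0.41, adjusted p = 0.285). In whole tissue, fewer cells that use a gene and less RNA per cell cannot be told apart.

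In kidney, Insig1 rose with PCE, and no other member passed the test at any dose. Insig1 was at 50.9 and 65.4 CPM in the PCE vehicle libraries. It was at 62.5, 59.3 and 73.7 CPM at 0.22 mmol/kg, at 90.1, 70.2 and 83 CPM at 0.67, at 88.7, 79.5 and 125 CPM at 2 and at 109, 121 and 116 CPM at 6. Every library from 0.67 mmol/kg upward lay above both vehicle libraries. At 6 mmol/kg the log2 change was 0.99 (SE 0.19, fold 1.98, adjusted p = 0.00447), and the trend over dose rank was 0.26 per rank (SE 0.03, adjusted p = 0.00149). The change at 2 mmol/kg was 0.75 (SE 0.19) and did not pass in edgeR (adjusted p = 0.274), though it did in DESeq2 (adjusted p = 0.0274). At 6 mmol/kg 3.83% of the 14216 kidney genes were called, and 3.37% in the trend, so 1 of 7 members is few genes to read a share from.

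Markers of other cell types differed among the same libraries. The summed level of the 4 brown fat markers was 4.15 and 19.7 CPM under PCE vehicle, and at 6 mmol/kg PCE it was 1.4, 3.43 and 184 CPM, in the same order of libraries as the Insig1 values 109, 121 and 116 CPM. Without the 8 kidney libraries over 50 CPM, a choice made after the data were seen, the Insig1 change was 0.98 (adjusted p = 0.0177). Leaving out PCE vehicle replicate 1 ended the call (log2 change 0.82, adjusted p = 0.129), while leaving out replicate 2 did not (1.18, adjusted p = 0.0327). In both cases the lone vehicle library was assumed to vary like the other groups. The proximal tubule markers summed to 67700 to 69500 CPM under PCE vehicle and to 50000 to 51500 CPM at 6 mmol/kg, without overlap, and 1 of the 5 fell (Kap, −0.52, adjusted p = 0.0103, named after its value was seen). The 3 markers of the loop of Henle and distal tubule summed to 57.6 to 77.7 CPM under vehicle and to 84 to 116 CPM at 6 mmol/kg, and T or B cell markers to 1.08 to 2.19 and 0.782 to 1 CPM, with no single gene of either list passing. The part of these kidney cell and lymphocyte markers in the Insig1 result was not tested.

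With TCE, Insig1 did not pass the test in kidney at any dose. The vehicle libraries held 64.9, 78.5 and 75.9 CPM and those at 6 mmol/kg 74.3, 80.3 and 56.8 CPM, in overlapping ranges. The log2 change was −0.05 (95% interval −0.38 to 0.27), and the trend was 0 per rank (interval −0.09 to 0.08). At the lower TCE doses the change was −0.44 (SE 0.17) at 0.22, −0.13 (SE 0.17) at 0.67 and −0.35 (SE 0.17) at 2 mmol/kg. The libraries at 0.22 mmol/kg, at 45.5, 60.8 and 55.2 CPM, all lay below vehicle. At equal molar dose the PCE response exceeded the TCE response by 0.61 (SE 0.25) at 0.22, by 0.61 (SE 0.25) at 0.67, by 1.1 (SE 0.25) at 2 and by 1.04 (SE 0.25) at 6 mmol/kg. The PCE change at 0.22 mmol/kg was 0.16 (SE 0.19), so the larger part of that difference lay in the lower TCE values. The intervals at the upper doses were 0.61 to 1.59 and 0.55 to 1.53. None passed in edgeR after adjustment over all genes (adjusted p = 0.994, 0.247, 0.796 and 0.197), while DESeq2 called the difference at 6 mmol/kg (adjusted p = 0.0226). The PCE vehicle libraries lay lower than those of TCE by 0.33 (SE 0.19, adjusted p = 0.679), and each difference above contains that gap.

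**Figure D2:**
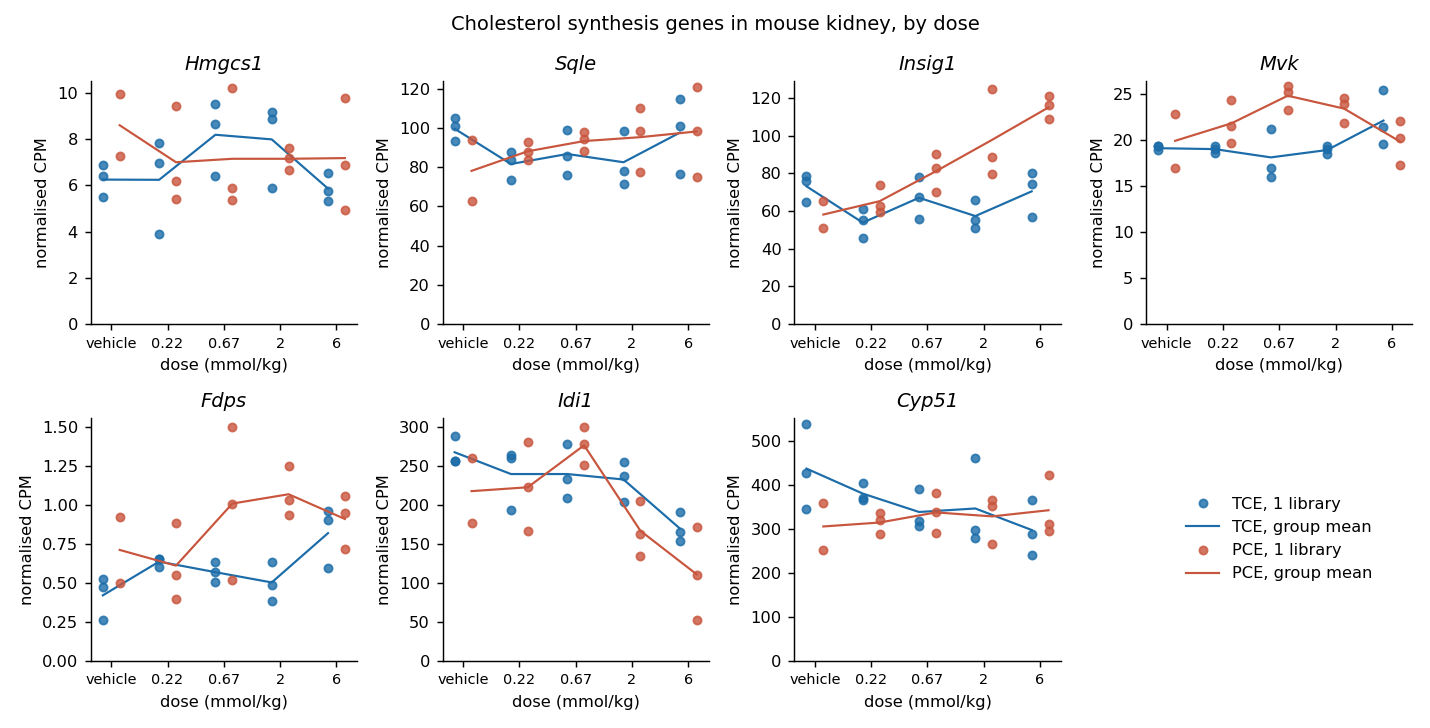
Kidney level of each gene by dose, in normalised CPM from 0, with 1 point per library and lines through the group means, blue for TCE and red for PCE. Insig1 climbs with PCE to 109 to 121 CPM and stays at 45.5 to 80.3 CPM in every TCE library, vehicle included.

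Idi1 was lower at the highest dose of both chemicals without passing the test. With PCE the kidney libraries held 177 and 260 CPM under vehicle and 52.1, 172 and 110 CPM at 6 mmol/kg, all below vehicle. The log2 change was −0.97 (SE 0.30, adjusted p = 0.0784). Idi1 passed with DESeq2 (adjusted p = 0.0178) and with both vehicle groups pooled (−1.16, adjusted p = 0.005). Those fits called 862 and 1359 kidney genes in place of 545. Of 29 libraries left out in turn, only PCE replicate 2 at 6 mmol/kg gave a call (−1.44, adjusted p = 0.00411). The change ran from −1.44 to −0.63 over the libraries left out. Idi1 did not pass in the other settings, among them the PCE libraries alone (adjusted p = 0.234) and no count filter (0.132). With TCE the values were 289, 257 and 257 CPM under vehicle and 165, 191 and 154 CPM at 6 mmol/kg, again without overlap. That change was −0.65 (SE 0.28, adjusted p = 0.404), and its trend of −0.13 per rank (SE 0.03, adjusted p = 0.192) passed with DESeq2 alone.

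The other 5 genes did not pass at 6 mmol/kg PCE in kidney, with a smallest adjusted p of 0.421. Sqle ran from 74.9 to 121 CPM there against 62.6 and 93.6 CPM under vehicle (0.33, interval −0.05 to 0.71). Cyp51 changed by 0.17 (interval −0.28 to 0.61), Mvk by 0 (−0.26 to 0.25), Hmgcs1 by −0.26 (−0.86 to 0.35) and Fdps by 0.35 (−0.40 to 1.09). With TCE at that dose, Fdps libraries at 0.903, 0.963 and 0.593 CPM lay above vehicle libraries at 0.263, 0.524 and 0.472 CPM, at so few counts that the change of 0.96 had an SE of 0.37 (adjusted p = 0.334). Cyp51 changed by −0.55 with TCE (SE 0.20, adjusted p = 0.309), from 539, 346 and 429 CPM to 366, 289 and 241 CPM. Mvk held 25.4, 21.4 and 19.5 CPM against 18.9, 19.3 and 19.3 CPM (0.21, adjusted p = 0.573). At 6 mmol/kg the groups did not overlap for 3 of 7 members with TCE, against 15.9% of all genes, and for 2 of 7 with PCE, against 31.9%. The edgeR test called 0.176% of all genes with TCE.

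In liver the gene that changed was Mvk, again with PCE. Mvk was at 39.8, 46.6 and 60 CPM under vehicle, at 54.4, 47.1 and 39.4 CPM at 0.22 mmol/kg and at 50 and 37.1 CPM at 0.67. It was at 36.3, 25.7 and 23.5 CPM at 2 mmol/kg and at 26.8, 30 and 22.4 CPM at 6. All libraries at 2 and 6 mmol/kg lay below all vehicle libraries, and the lower doses overlapped with vehicle. Mvk fell by 0.89 on the log2 scale at 6 mmol/kg (SE 0.22, adjusted p = 0.0211), where 5.84% of the 13174 liver genes were called. The trend was −0.25 per rank (SE 0.05, adjusted p = 0.00826), where 11.8% were called (−0.21 and no call, adjusted p = 0.244, once each library's length and GC slopes entered the fit). At 2 mmol/kg the change of −0.78 (SE 0.22) did not pass (adjusted p = 0.132), and it passed with pooled vehicle groups (adjusted p = 0.0203).

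The liver libraries at 6 mmol/kg PCE also differed from their vehicle libraries in how levels depend on base composition. Each library's log2 CPM was regressed on gene GC content, and the slope per 10 percentage points was −0.22, −0.179 and −0.342 in the PCE libraries at 6 mmol/kg and 0.039, 0.217 and −0.001 in their vehicle libraries. Across the 29 libraries Mvk correlated with that slope at r = 0.66 in liver and 0.57 in kidney, a description over libraries that share the slope. With length and GC slopes as covariates the Mvk change kept its size at −0.83 and was not called (adjusted p = 0.212), in a fit that called 18 genes in place of 770. The call was also lost without PCE vehicle replicate 2 or 3 and without PCE replicate 1 or 3 at 6 mmol/kg (−0.71 to −1.01 over all libraries left out, adjusted p of at most 0.109). Beside it, 1 of 5 Kupffer cell markers rose (Adgre1, 1.42), 1 of 4 stellate cell or fibroblast markers rose (Dcn, 1.3), 1 of 5 hepatocyte markers fell (Ass1, −1.13) and 1 of 3 tested proximal tubule markers fell (Lrp2, −1.73), named after their values were seen. As sums, hepatocyte markers ran from 99900 to 107000 CPM under PCE vehicle and from 102000 to 135000 CPM at 6 mmol/kg. Kupffer cell markers (62.1 to 200 and 118 to 226 CPM) and stellate cell or fibroblast markers (28.8 to 55.4 and 52.5 to 77 CPM) also overlapped. Proximal tubule markers did not (1.9 to 3.25 and 0.144 to 1.16 CPM). Their part in the Mvk result was not tested.

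TCE did not move Mvk past the test in liver. Vehicle libraries held 69.6, 40.5 and 57.3 CPM and those at 6 mmol/kg 43.8, 45.9 and 35.6 CPM, in overlapping ranges, a change of −0.42 (interval −0.84 to 0, adjusted p = 0.473). The PCE response minus the TCE response was −0.76 at 2 mmol/kg (interval −1.36 to −0.16, adjusted p = 0.649) and −0.47 at 6 (−1.07 to 0.13, adjusted p = 0.63). Mmab, which shares the promoter region printed above, fell by 0.59 with PCE at 6 mmol/kg in liver (SE 0.13, adjusted p = 0.013), from 53.8 ± 7.63 to 35.7 ± 2.86 CPM (n = 3 each). In kidney neither gene was called, and Mmab changed by 0.10.

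**Figure D3:**
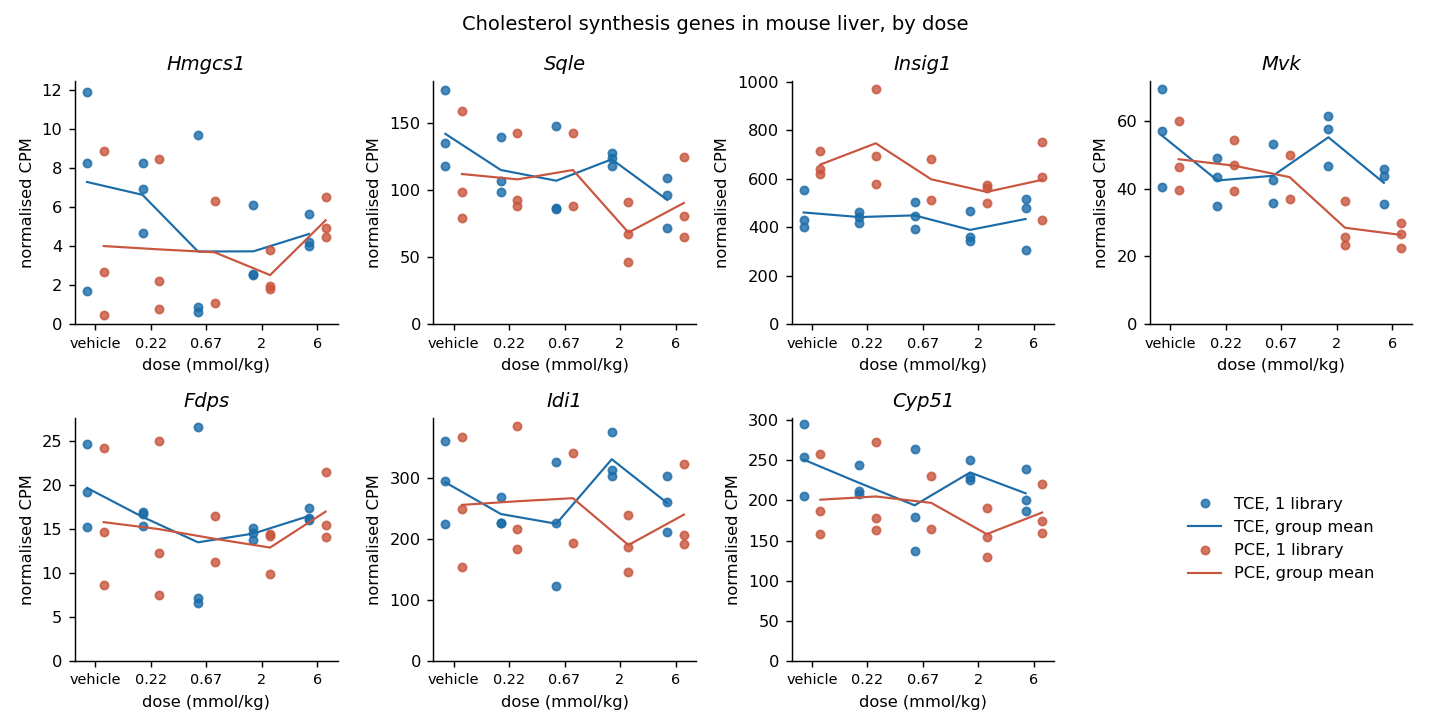
Liver level of each gene by dose, in normalised CPM from 0, with 1 point per library and lines through the group means, blue for TCE and red for PCE. Mvk with PCE drops to 22.4 to 36.3 CPM at the upper doses, while Hmgcs1 scatters from 0.473 to 11.9 CPM over the libraries.

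No other member passed in liver. Sqle was at 135, 118 and 175 CPM under TCE vehicle and at 109, 96.6 and 72 CPM at 6 mmol/kg, all below vehicle, with a change of −0.62 (SE 0.30, adjusted p = 0.433). With PCE its change was −0.72 at 2 mmol/kg (adjusted p = 0.355) and −0.31 at 6 (adjusted p = 0.536). Insig1 ran from 622 to 714 CPM under PCE vehicle and held 428, 609 and 751 CPM at 6 mmol/kg, a change of −0.15 (interval −0.57 to 0.28). Idi1 changed by −0.09 (−0.76 to 0.57), Cyp51 by −0.12 (−0.58 to 0.34) and Fdps by 0.11 (−0.73 to 0.94) with PCE at that dose. Hmgcs1 ranged 25.2-fold over the 29 liver libraries, from 0.473 to 11.9 CPM. Its 3 TCE vehicle libraries alone held 1.71, 8.24 and 11.9 CPM and its 3 PCE vehicle libraries 2.65, 0.473 and 8.87 CPM. This spread left the interval of its change at 6 mmol/kg PCE at −1.40 to 2.22. Hmgcs1 correlated at r = 0.85 with each liver library's slope on transcript length, and its part in the Hmgcs1 values was not tested.

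**Figure D4:**
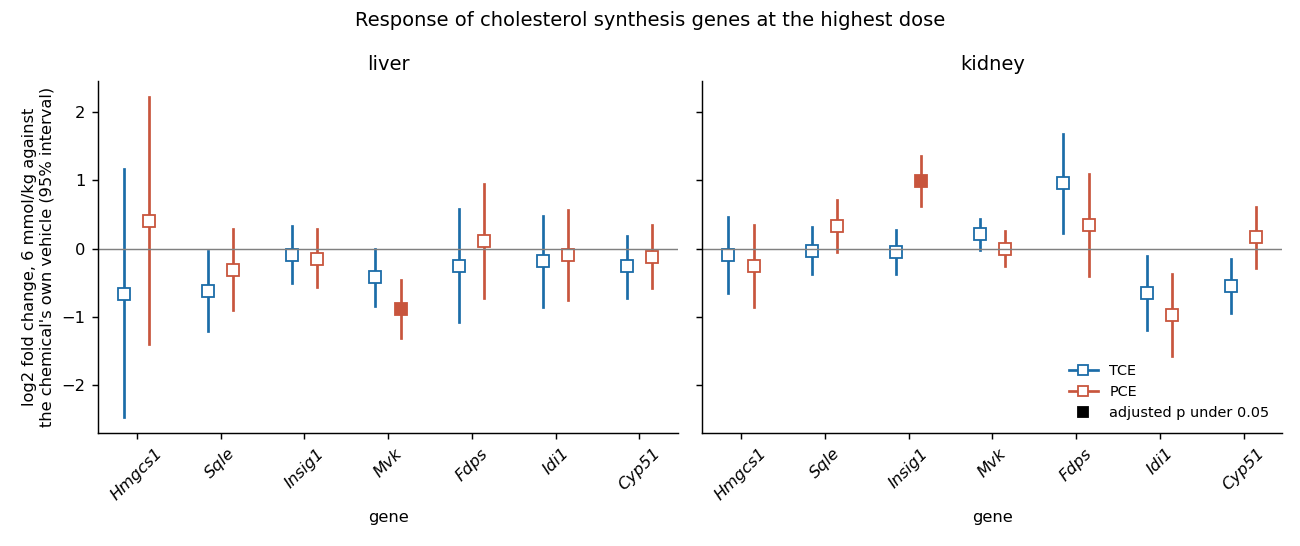
Log2 change at 6 mmol/kg against the chemical's own vehicle group, with nominal 95% intervals, for TCE (blue) and PCE (red) in liver (left) and kidney (right). Filled squares passed an adjusted p of 0.05, which held only for Mvk in liver (−0.89) and Insig1 in kidney (0.99), both with PCE.

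Over all doses, TCE called 0 of 7 members in each tissue. In liver the TCE comparisons called 0%, 0.00759%, 0.00759% and 1.31% of all genes from the lowest dose to the highest, and the trend 0.851%. In kidney the percentages were 0%, 0.00703%, 0% and 0.176%, with 0% in the trend. PCE at 0.22, 0.67 and 2 mmol/kg called 0.00759%, 0.00759% and 0.182% of genes in liver and 0%, 0% and 0.0141% in kidney, and no member. Of 28 TCE tests in each tissue, 5 in kidney and 0 in liver had an unadjusted p under 0.05, among them Cyp51, Fdps and Idi1 at 6 mmol/kg, and DESeq2 called none. Over all genes that share was 7.98% in kidney and 8.8% in liver. For the lower PCE doses 3 of 21 tests in kidney and 2 of 21 in liver had an unadjusted p under 0.05, and DESeq2 called 1, that of Insig1 in kidney at 2 mmol/kg. Over all genes the share at these doses was 6.86% in kidney and 7.86% in liver. The median member change at 6 mmol/kg TCE was −0.26 in liver, where all 7 values were negative, against −0.04 over all genes, and −0.05 in kidney against 0.01. With PCE the medians were −0.12 in liver against 0 and 0.17 in kidney against 0.03.

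PCE and TCE were compared at 4 matched molar doses in 2 tissues for 7 genes, and edgeR called none of these differences. Of 28 tests in each tissue, 1 in liver and 7 in kidney had an unadjusted p under 0.05, and DESeq2 called 1, that of Insig1 in kidney. Over all genes 6.8% of tests in liver and 8.09% in kidney had such a p. All genes gave 0%, 0.0228%, 0% and 0% calls in liver and 0%, 0%, 0% and 0.0211% in kidney. At 6 mmol/kg the intervals were wide enough to leave sizeable differences, such as −1.50 to 3.63 for Hmgcs1 in liver, and narrowest for Mvk in kidney at −0.56 to 0.13. Cyp51 in kidney differed by 0.72 (interval 0.12 to 1.32, adjusted p = 0.573), a value that includes a gap between the vehicle groups, PCE minus TCE, of −0.52 (interval −0.96 to −0.07). No member was called between the vehicle groups of both chemicals (0% of genes called in each tissue, smallest member adjusted p = 0.409), though besides Cyp51 in kidney the interval left out 0 for Insig1 in liver, 0.52 higher in the PCE vehicle group (interval 0.09 to 0.94). A p-value above the threshold does not show that both chemicals act alike.

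The kidney response minus the liver response at 6 mmol/kg PCE was 1.14 for Insig1 (SE 0.30, adjusted p = 0.054) and 0.89 for Mvk (SE 0.27, adjusted p = 0.112), where 0.709% of genes were called. Insig1 passed with DESeq2 (adjusted p = 0.0138), and in edgeR without liver TCE vehicle replicate 1 (adjusted p = 0.0496), liver TCE replicate 3 at 6 mmol/kg (0.0379) or liver PCE replicate 3 at 6 mmol/kg (0.0195). The TCE libraries are not part of the PCE difference itself. With 20 of the 23 libraries left out in turn Insig1 was not called, and its difference ran from 0.95 to 1.35 over all 23. For TCE the Insig1 difference was 0.03 (interval −0.51 to 0.58) and the Mvk difference 0.64 (interval 0.14 to 1.14, adjusted p = 0.364), where 0.328% were called. Neither tissue difference passed in edgeR, so the calls of Insig1 in kidney and Mvk in liver are not shown to be particular to a tissue.

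The rest of the pathway was counted from lists by function. At 6 mmol/kg PCE edgeR called 3 of 56 tested genes of these lists in liver and 2 of 54 in kidney. Over all genes it called 5.84% and 3.83%. DESeq2 called 8 and 4 of the list genes, in fits that called 1516 and 862 genes in place of 770 and 545. Of 14 other cholesterol synthesis enzymes, all tested, 1 fell and 13 did not pass in liver at 6 mmol/kg PCE, with a median of −0.22 against 0 over all genes. The one that fell was Tm7sf2, a sterol reductase, from 216 ± 6.18 to 146 ± 23.1 CPM (−0.57, SE 0.15, adjusted p = 0.0277). In kidney none of the 14 passed and their median was −0.01. Of 7 other SREBP2 targets 6 were tested, and in liver Mmab fell and 5 did not pass. None of the 6 passed in edgeR in kidney at 6 mmol/kg. Tmem97 passed there with DESeq2 (0.6, adjusted p = 0.0357), pooled vehicle groups (0.5, adjusted p = 0.034) and length and GC slopes (0.65, adjusted p = 0.0382). None of the 5 tested SREBP control genes, among them Srebf2 and Scap, passed in edgeR in either tissue. In liver Mbtps2 passed with DESeq2 (0.49, adjusted p = 0.0412) and with pooled vehicle groups (0.45, adjusted p = 0.047). Of 12 genes of fatty acid synthesis under SREBP1, 0 passed in edgeR in either tissue at 6 mmol/kg PCE. Their medians were 0.34 in liver against 0 over all genes and 0.57 in kidney against 0.03. DESeq2 called Thrsp (−1.53, adjusted p = 0.0215) and Fads1 (0.65, adjusted p = 0.0468) in liver. The kidney sums ran from 1170 to 1490 CPM under PCE vehicle and from 1110 to 2590 CPM at 6 mmol/kg. Without the 8 libraries over 50 CPM of brown fat markers, Thrsp in kidney went from 1.51 to −1.57, called in neither fit. The part of fat tissue in this list was not tested.

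The export gene called at 6 mmol/kg PCE differed between the tissues, Abca1 in kidney and Abcg5 in liver. Abca1, which moves cholesterol out of cells onto apolipoprotein A1 and is a target of the sterol sensor LXR, was at 22.2 and 39.3 CPM in the kidney PCE vehicle libraries and at 87.8 to 127 CPM at 6 mmol/kg, without overlap. It rose by 1.89 (SE 0.32, adjusted p = 0.00176), as the single call among 8 tested genes of efflux and esterification, and lost the call without PCE vehicle replicate 2 (1.53, adjusted p = 0.0817). In liver Abcg5, a subunit of the sterol exporter into bile, rose by 0.91 (SE 0.23, adjusted p = 0.0229) from 55.8 ± 10.4 to 105 ± 27 CPM, as the single call among 10. Over all genes edgeR called 3.83% in kidney and 5.84% in liver. Abca1 in liver changed by 0.29 (edgeR adjusted p = 0.494), and Abcg5 did not pass the count filter in kidney. With length and GC slopes none of the liver calls of Abcg5 (adjusted p = 0.171), Mmab (0.128) and Tm7sf2 (0.196) held. All 3 were also lost without PCE replicate 1 or 3 at 6 mmol/kg, Abcg5 without PCE vehicle replicate 1 or 3 and Tm7sf2 without PCE vehicle replicate 1 or 2, with adjusted p of up to 0.151, 0.0979 and 0.178 in that order of genes. Of 9 genes of the isoprenoid branch, which draws on farnesyl diphosphate for ubiquinone and protein prenylation, Pdss1 fell by 0.50 in kidney (SE 0.12, adjusted p = 0.0229) and 8 did not pass. The Pdss1 call was lost without the 8 libraries over 50 CPM of brown fat markers (−0.44, adjusted p = 0.0904), with the PCE libraries alone (adjusted p = 0.0503) and without either PCE vehicle replicate or PCE replicate 1 or 3 at 6 mmol/kg (adjusted p of up to 0.229). No gene of these 6 lists passed at 6 mmol/kg TCE in edgeR or DESeq2 in either tissue, where 3 of 56 in liver and 4 of 54 in kidney had an unadjusted p under 0.05, against 11.7% and 10.1% of all genes.

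The trends over PCE dose rank called a few more genes of the lists in edgeR, named here after their values were seen. Over all genes these trends called 11.8% in liver and 3.37% in kidney. In liver Nsdhl, another sterol synthesis enzyme, fell by 0.13 per rank (adjusted p = 0.0351), and Thrsp of the lipogenesis list fell by 0.43 (adjusted p = 0.0159). Mbtps2, a protease that releases SREBPs, rose by 0.11, Npc2, a lysosomal cholesterol carrier, by 0.09 and the desaturase Fads1 by 0.17, with adjusted p of 0.0239, 0.0495 and 0.0366. In kidney Tmem97, an SREBP2 target, rose by 0.16 per rank (adjusted p = 0.0358). With length and GC slopes all 5 liver trends lost their call, Nsdhl at −0.07 (adjusted p = 0.617), Thrsp at −0.34 (0.385), Mbtps2 at 0.03 (0.733), Npc2 at 0.04 (0.654) and Fads1 at 0.03 (0.86), in a fit that called 143 genes in place of 1537. With the replicate block added, Fads1 was at −0.06 (adjusted p = 0.828). Thrsp was not called with pooled vehicle groups (−0.26, adjusted p = 0.18). Of 14 libraries left out in turn, 4 ended the call of Mbtps2, 6 those of Nsdhl and of Fads1, 7 that of Tmem97, 11 that of Npc2 and 0 that of Thrsp.

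Over the 29 liver libraries the median Pearson r between members was 0.63 over 21 pairs, and 0.75 after group means were removed. Sqle, Idi1 and Cyp51 were closest, with r of 0.94 for Idi1 and Cyp51, 0.91 for Sqle and Cyp51 and 0.83 for Sqle and Idi1. Insig1 stood aside in liver, with r between −0.17 and 0.07 to every other member. Hmgcs1 and Fdps correlated at 0.90, and both followed the length slope (0.85 and 0.68). In kidney the median r was 0.15, and 0.23 after group means were removed. Insig1 correlated there at −0.45 with Idi1 and 0.53 with Fdps, and at 0.22 and 0.33 after group means were removed. These values share libraries, depth and composition and describe them only, and the difference between tissues was not tested.

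**Figure D5:**
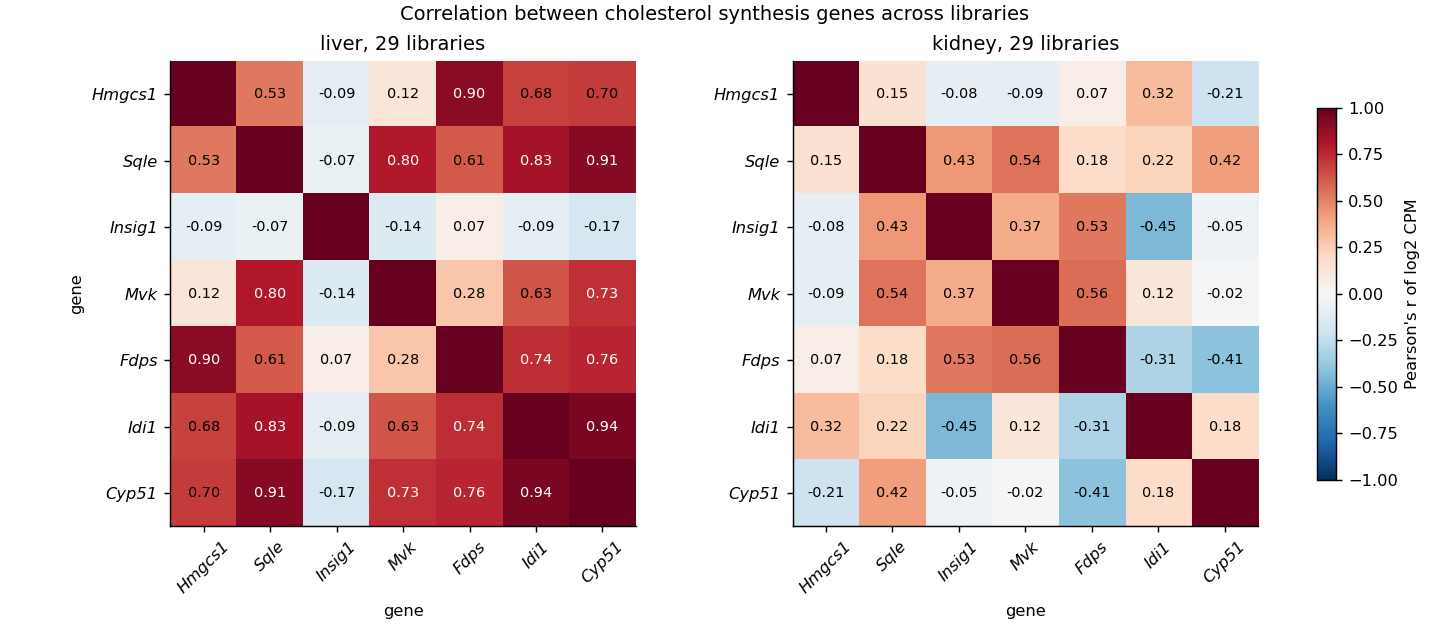
Pearson's r of log2 CPM between the genes across 29 libraries in liver (left) and kidney (right). In liver Sqle, Idi1 and Cyp51 reach 0.83 to 0.94 and Insig1 lies near 0, while kidney values spread from −0.45 to 0.56.

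Among genes outside the list with a mean of at least 1 CPM, those most like the members' mean standardised level were found by Pearson's r over the 29 libraries of a tissue. Of 9299 liver genes, the most alike included Lss at 0.89, Srebf2 at 0.83, Rnf26 at 0.83, Dhcr7 at 0.81 and Qprt at 0.81. Lss and Dhcr7 are enzymes of sterol synthesis and Srebf2 encodes SREBP2. Of 10931 kidney genes, they included Fdft1, the squalene synthase, at 0.72, Pmvk at 0.66, Slc5a1 at 0.62, Nol3 at 0.62 and Srebf1 at 0.61.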

How the data were processed

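Total RNA libraries of 29 liver and 29 kidney samples were counted by the authors. The deposited tables hold raw read counts per RefSeq transcript, 1 column per library with no pooling, per the file headers. In the columns of 0.22 and 0.67 mmol/kg, deposited with a decimal dose line over whole numbers, the unit was set to expected counts, and rounding changed nothing. Tools and build given in the submitters' processing notes, without roles, are HTSeq, TopHat2 2.0.10, CASAVA 1.8.2 and mm10. Annotation version and strand setting are not given in the sources used here. Ambiguous and unassigned reads were left out of totals.

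Transcripts were summed to 24123 genes by accession in the RefSeq table of GRCm38.p6. Of 33392 transcripts 278 were named by the deposited symbol and 126 kept their accession. Counts were fitted in edgeR 4.0.16 (R 4.3.3) with TMM, filterByExpr, a robust quasi-likelihood fit and 1 mean per group, over 13174 liver and 14216 kidney genes, and over 14949 genes of all 58 libraries for tissue comparisons. The trend used the dose rank within 1 chemical and tissue. Adjustment was by Benjamini-Hochberg over all genes, with calls under 0.05, and every test was two-sided. An SE is the log2 change's size over the root of F. Intervals are nominally 95%, set from the SE with the normal distribution and not from the F test. They are therefore somewhat too narrow, and an interval can leave out 0 where the unadjusted F test does not pass 0.05. Sqle in liver at 6 mmol/kg TCE is such a case (interval −1.21 to −0.03). On simulated liver counts with 6 mmol/kg PCE changes, 94% of 4-fold and 51% of 2-fold changes were recovered, and 90% and 64% in kidney. Unchanged genes called numbered 2 in liver and 9 in kidney. Genes were drawn independently with a spread set by their level alone, without length or GC slopes. These rates therefore need not hold for single members.

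The members and lists were chosen with earlier results of these data known. Named genes are all members, at most 4 called genes per list at 6 mmol/kg, and the 6 genes per tissue most like the members' mean, of which 1 is not reported here. Alternatives were DESeq2 1.42.0, its size factors, no count filter, a chemical's own libraries, pooled vehicle groups, a replicate block, length and GC slopes, and leaving out each library.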

Additional observations from a re-analysis of the deposited data

How the results depend on the processing

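The replicate block left the number of members called in each comparison as it was (1 in liver and 1 in kidney at 6 mmol/kg PCE). The labels do not say whether replicate numbers pair the samples. Same-numbered libraries of different groups within a tissue had deviations with a median correlation of −0.01 in liver and 0.01 in kidney. The medians for other pairs were −0.01 and 0. Of the same-numbered pairs, 42 of 126 in liver and 35 of 126 in kidney were over 0.1. These values cannot show whether a liver and a kidney library came from 1 animal. With DESeq2 the number of members called went from 0 to 1 at 2 mmol/kg PCE, in the PCE minus TCE difference at 6 mmol/kg and in the TCE trend, all in kidney, from 1 to 2 at 6 mmol/kg PCE in kidney, and from 0 to 1 in the kidney minus liver response to PCE. Pooled vehicle groups gave 1 in place of 0 at 2 mmol/kg PCE in liver and 2 in place of 1 at 6 mmol/kg PCE in kidney. Length and GC slopes, with or without the replicate block, gave 0 in place of 1 at 6 mmol/kg PCE in liver and in the liver PCE trend. The causes were not tested. Leaving out 1 library gave 0 to 1 member called at 6 mmol/kg PCE in liver, 0 to 2 in kidney, and 0 to 1 in the kidney minus liver response to PCE. The Insig1 change in kidney ran from 0.82 to 1.18 over libraries left out and from 0.78 to 1.02 over 9 other settings. No called change reversed. Of 1687 member values under other settings 6 lost a call and 7 gained one, and of 6167 with a library left out 11 lost and 4 gained one. Values called in neither fit changed sign in 90 and 175 cases. At 6 to 39 counts of Fdps per kidney library, counting error is large for that gene.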
